A study of Caenorhabditis elegans with 12 samples.

Results

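The transthyretin-like genes (ttr genes) of Caenorhabditis elegans were taken as every gene with a symbol of the form ttr-number that a probe set of the array names alone in the platform's annotation. There were 40 such genes of 17118 genes with a probe set of their own. Each gene is represented by 1 probe set, and for ttr-24, which had another, the probe set with the higher mean was used. Whole-body RNA of strain N2, the wild type, was measured on 12 Affymetrix arrays, 3 in each of 4 groups. The groups were fasted males, fed males, fasted hermaphrodites and fed hermaphrodites. All worms were grown at 20 C, and the labels name no transgene or mutation. As young adults the sexes were separated by filtration and moved to plates with 200 ug/ml of FUdR, a DNA synthesis blocker that keeps progeny from hatching, and all were collected on day 4 of adulthood. The fasted groups had spent 48 h without food from day 2 of adulthood, and the fed groups had eaten ad libitum over the same days. The labels describe 3 independent experiments, each with 1 sample of each group, so the spread within a group is that between biological replicates.

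Transthyretin-like proteins form a large nematode family of small, mostly secreted proteins that are distantly related to vertebrate transthyretin, the carrier of thyroid hormone and of retinol-binding protein. Few members have a described role. TTR-52 is secreted and bridges phosphatidylserine on dying cells to the engulfment receptor CED-1, TTR-11 binds phosphatidylserine during axon regeneration, and TTR-33 protects dopaminergic neurons against oxidative stress. The WBcel235 gene table holds 59 ttr genes, of which 19 have no probe set of their own in the annotation. The genes ttr-11 and ttr-33 are among these and were not analysed here.

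Levels are log2 values of the deposited MAS5 signal, a summary of the probes of each probe set. Detection calls were not used here, so probe sets were tested only if 3 or more of the 12 arrays exceeded log2 6.01, the 40th percentile. This kept 37 of the 40 ttr genes. The engulfment gene ttr-52 was not tested: it lay at 4.32, 4.73 and 3.93 in fasted males, 4.67, 4.75 and 4.36 in fed males, 4.76, 5.69 and 5.07 in fasted hermaphrodites and 4.74, 5.20 and 4.03 in fed hermaphrodites. All its values were under the filter level. The other untested genes were ttr-19, under the level on every array, and ttr-28, above it on 1 array. Of the tested genes, 29 lay above the level on all 12 arrays, 5 passed through male arrays alone (ttr-9, ttr-12, ttr-13, ttr-22 and ttr-56) and 2 through hermaphrodite arrays alone (ttr-14 and ttr-50). Signals of different probe sets are not comparable as amounts, so no gene's level is set against another gene's.

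Sex labels matched 4 marker genes in both feeding states. The yolk protein gene vit-2 differed by -6.71 (log2) and the oocyte yolk receptor gene rme-2 by -5.98 in fed males against fed hermaphrodites, while lov-1, a gene of male sensory neurons, was higher by 4.29 and the sperm gene spe-9 by 1.60. Within groups, arrays correlated at r = 0.957 to 0.975 across probe sets. Tests are two-sided limma tests on all 15913 tested probe sets with Benjamini-Hochberg adjustment, and an adjusted p under 0.05 was called. These tests did not pair arrays by replicate number. A fit with a term for that number, the replicate block, was an alternative. In whole worms, fewer cells of a type and less RNA per cell cannot be told apart.

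**Figure D1:**
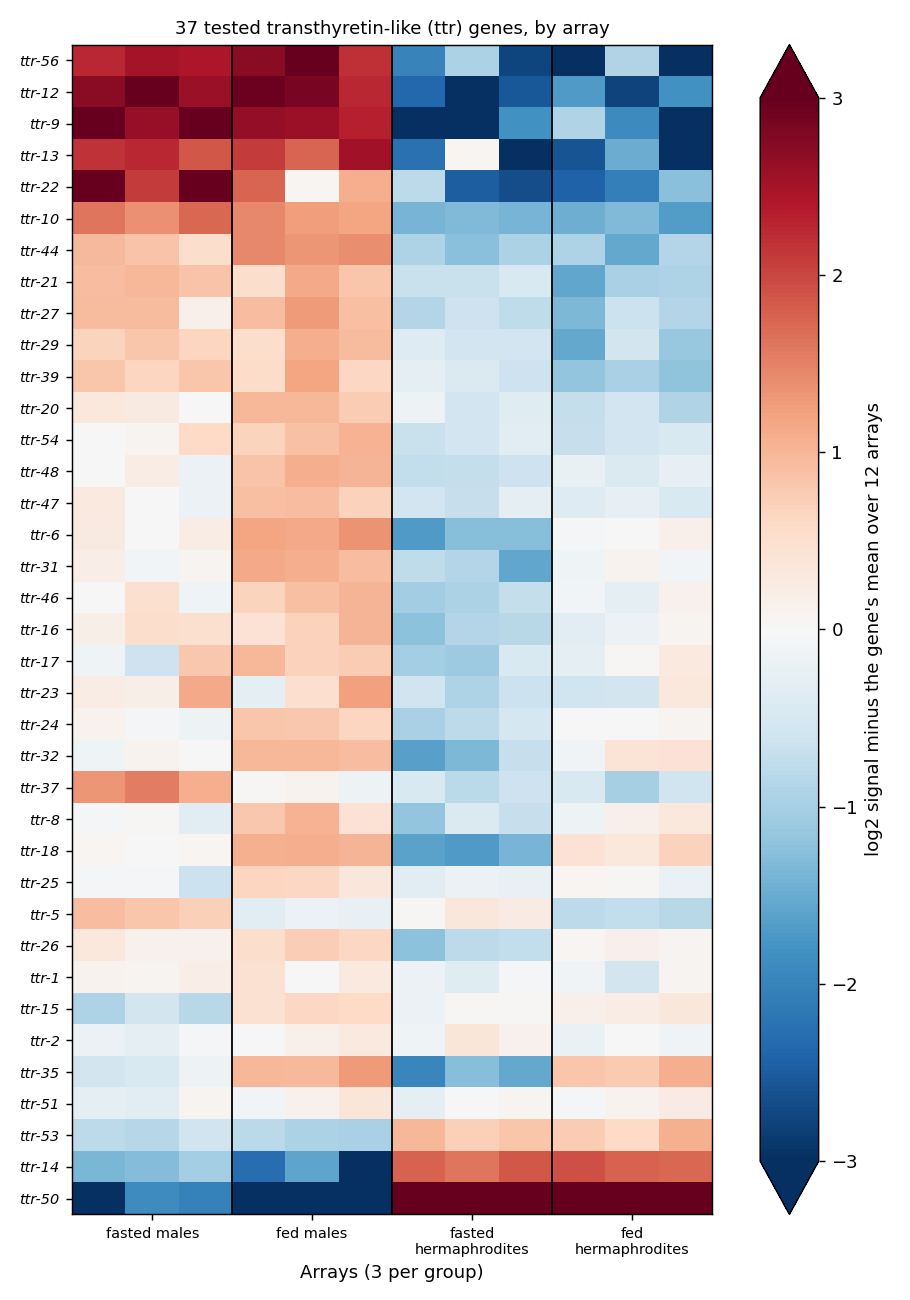
Heat map of the 37 tested ttr genes (rows, ordered by the sex difference in fed worms) on 12 arrays (columns, 3 per group, fasted males at the left and fed hermaphrodites at the right). Colour is the log2 signal minus the gene's own mean over the 12 arrays, and values past 3 or -3 take the end colours. Most rows are redder on the 6 male arrays, ttr-50, ttr-14 and ttr-53 are redder on the 6 hermaphrodite arrays, and many rows are bluer in the fasted than in the fed group of the same sex.

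In hermaphrodites, fasting lowered 10 of 37 ttr genes and raised 2. The falls were in ttr-35, ttr-18, ttr-32, ttr-6, ttr-31, ttr-26, ttr-8, ttr-16, ttr-46 and ttr-24, and the rises in ttr-5 and ttr-39. Among all 15913 probe sets 5.69% were called lower and 5.72% higher, against 27% and 5.41% of the ttr genes. The median change of the 37 ttr genes was -0.15, that of all probe sets 0.09. The other 25 ttr genes did not pass the test. On each of these 12 called genes the arrays of fasted and fed hermaphrodites did not overlap. The share of all called probe sets without overlap is not given here, so this is not read as a trait of ttr genes.

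The deepest fall in fasted hermaphrodites was that of ttr-35, which lay at 7.96, 8.63 and 8.38 in fasted worms, against 10.76, 10.70 and 11.02 in fed worms. Every fasted array was more than 2 log2 units under every fed one, a change of -2.50 ± 0.18 (SE; adjusted p = 2.11e-06) or 5.66-fold. The signal of ttr-18 was 9.48, 9.38 and 9.70 in fasted and 11.51, 11.40 and 11.77 in fed hermaphrodites, a change of -2.04 ± 0.12 (adjusted p = 4.18e-07) or 4.11-fold. Its replicates lay within 0.4 log2 units of each other in both groups. The probe set of ttr-18 is of the type that can match transcripts of several genes, as are those of ttr-15, ttr-24, ttr-44, ttr-50 and ttr-51.

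Smaller falls in fasted hermaphrodites were between 2 and 3-fold. The gene ttr-32 lay at 7.15, 7.43 and 8.08 in fasted against 8.67, 9.17 and 9.21 in fed worms (-1.46 ± 0.22, adjusted p = 7.81e-04). For ttr-6 the values were 10.49, 10.92 and 10.90 in fasted against 12.12, 12.18 and 12.34 in fed worms (-1.44 ± 0.13, adjusted p = 1.73e-05). Both genes were lower on every fasted array, with the spread of ttr-32 the wider. The signal of ttr-31 was 6.30, 6.19 and 5.51 in fasted and 6.93, 7.18 and 6.98 in fed hermaphrodites (-1.03 ± 0.22, adjusted p = 0.00876), and that of ttr-26 was 10.19, 10.66 and 10.70 in fasted and 11.50, 11.58 and 11.51 in fed hermaphrodites (-1.01 ± 0.13, adjusted p = 3.09e-04). The fasted values of ttr-31 lay next to the filter level, and its change was -0.60 after a pseudocount at the 40th percentile of the signal was added. The other 4 falls, in ttr-8, ttr-16, ttr-46 and ttr-24, were between -0.87 and -0.79.

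Both rises in hermaphrodites were under 2-fold. The gene ttr-5 lay at 12.26, 12.57 and 12.46 in fasted and 11.45, 11.49 and 11.38 in fed hermaphrodites (0.99 ± 0.11, adjusted p = 5.07e-05). The rise of ttr-39, at 7.32, 7.18 and 6.99 in fasted and 6.43, 6.64 and 6.39 in fed hermaphrodites, was 0.68 ± 0.19 (adjusted p = 0.0416). That call of ttr-39 ended after quantile normalization (adjusted p = 0.142), after median centring (0.0892), with the pseudocount (0.0732), without the filter (0.0631), with only the arrays compared (0.0885) and without any 1 of the 6 hermaphrodite arrays or any 1 fasted male array (0.0527 to 0.111 over these).

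In males, fasting lowered 16 of 37 ttr genes and raised 3. The falls were in ttr-35, ttr-15, ttr-6, ttr-18, ttr-32, ttr-31, ttr-48, ttr-8, ttr-24, ttr-25, ttr-47, ttr-46, ttr-20, ttr-54, ttr-44 and ttr-26, between -1.47 and -0.44, and on all 16 the arrays of fasted and fed males did not overlap. That share among all called probe sets is likewise not given here, so the lack of overlap is a description only. The rises were in ttr-50, ttr-37 and ttr-5. Of all probe sets 8.31% were called lower and 19% higher in fasted males, against 43.2% and 8.11% of the ttr genes. The median change of the ttr genes was -0.32 and that of all probe sets 0.23. The median of all probe sets was 0.11 after quantile normalization and 0.04 after median centring, and the ttr median lay 0.55, 0.41 and 0.55 log2 units under it on the deposited, the quantile and the median-centred scale.

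The genes ttr-35 and ttr-15 had the deepest falls in males. The signal of ttr-35 was 9.38, 9.46 and 9.76 in fasted and 10.92, 10.89 and 11.20 in fed males (-1.47 ± 0.18, adjusted p = 1.02e-04), a 2.77-fold fall. For ttr-15 it was 12.82, 13.19 and 12.92 in fasted and 14.21, 14.36 and 14.35 in fed males (-1.33 ± 0.11, adjusted p = 8.16e-06), a 2.51-fold fall. The groups lay about 1 log2 unit or more apart for both genes. The values of ttr-6 were 12.47, 12.18 and 12.42 in fasted and 13.37, 13.33 and 13.54 in fed males (-1.06 ± 0.13, adjusted p = 1.38e-04), and those of ttr-18 were 11.14, 11.06 and 11.15 in fasted and 12.14, 12.17 and 12.10 in fed males (-1.02 ± 0.12, adjusted p = 7.32e-05). Replicates of ttr-18 differed by no more than 0.1 log2 units within each male group. The signal of ttr-32 was 8.63, 8.88 and 8.77 in fasted and 9.75, 9.77 and 9.69 in fed males (-0.98 ± 0.22, adjusted p = 0.00589), and that of ttr-31 was 7.26, 7.0 and 7.16 in fasted and 8.21, 8.15 and 7.99 in fed males (-0.98 ± 0.22, adjusted p = 0.00612).

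Fasted males had more signal than fed males for ttr-37 and ttr-5. The gene ttr-37 lay at 9.69, 9.90 and 9.46 in fasted and 8.39, 8.46 and 8.2 in fed males (1.33 ± 0.18, adjusted p = 2.18e-04), a 2.52-fold rise. The gene ttr-5 lay at 13.15, 13.06 and 12.94 in fasted and 11.90, 12.05 and 12.01 in fed males (1.06 ± 0.11, adjusted p = 2.28e-05), a 2.09-fold rise. Both rises held on every array. The third call, ttr-50, was under the filter level on all male arrays, with 3.85, 5.81 and 5.65 in fasted and 4.44, 1.46 and 2.01 in fed males. These groups overlapped, and the call of ttr-50 (2.46 ± 0.66, adjusted p = 0.0158) ended with the pseudocount (0.48, adjusted p = 0.0902), with only the male arrays in the fit (0.0751), and without fed replicate 2 (0.0672) or 3 (0.0565) or fasted replicate 2 (0.0659) or 3 (0.0565).

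The arrays of males and hermaphrodites are separate samples. Of the 16 genes that fell in males 9 also fell in hermaphrodites, which is 56.2% of the male and 90% of the hermaphrodite falls. Of all probe sets 1323 fell in males and 655 of these also in hermaphrodites, which is 49.5% of the male and 72.3% of the hermaphrodite falls. The 9 ttr genes are 24.3% of those tested, against 4.12% of all probe sets, and no test of that difference was made. These 9 were ttr-6, ttr-8, ttr-18, ttr-24, ttr-26, ttr-31, ttr-32, ttr-35 and ttr-46, and ttr-5 was the gene that rose in both. Across the 37 genes the fasting changes of males and hermaphrodites correlated at r = 0.49 (Spearman rho = 0.57) and had the same sign in 22 (59.5%), against r = 0.546 (rho = 0.305) and the same sign in 63.7% of all probe sets. With the replicate block 20 ttr genes fell in males and 11 in hermaphrodites, and all 11 were among the 20, with ttr-16 (adjusted p = 0.0160) and ttr-17 (0.0226) added to the falls in males. In that fit 1513 of all probe sets fell in males and 1096 in hermaphrodites. Both sexes shared 754 of these, which is 49.8% of the male and 68.8% of the hermaphrodite falls. Over the 29 genes above the filter level on all arrays r was 0.65, and genes are not independent replicates. The r over all probe sets above that level on all arrays is not given here, so this 0.65 has no counterpart. The call of ttr-26 in males (-0.44 ± 0.13, adjusted p = 0.0295) ended after quantile normalization (0.173), without the variance trend (0.0586), and without fed replicate 2 (0.106) or 3 (0.0612) or fasted replicate 2 (0.0892) or 3 (0.0822).

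**Figure D2:**
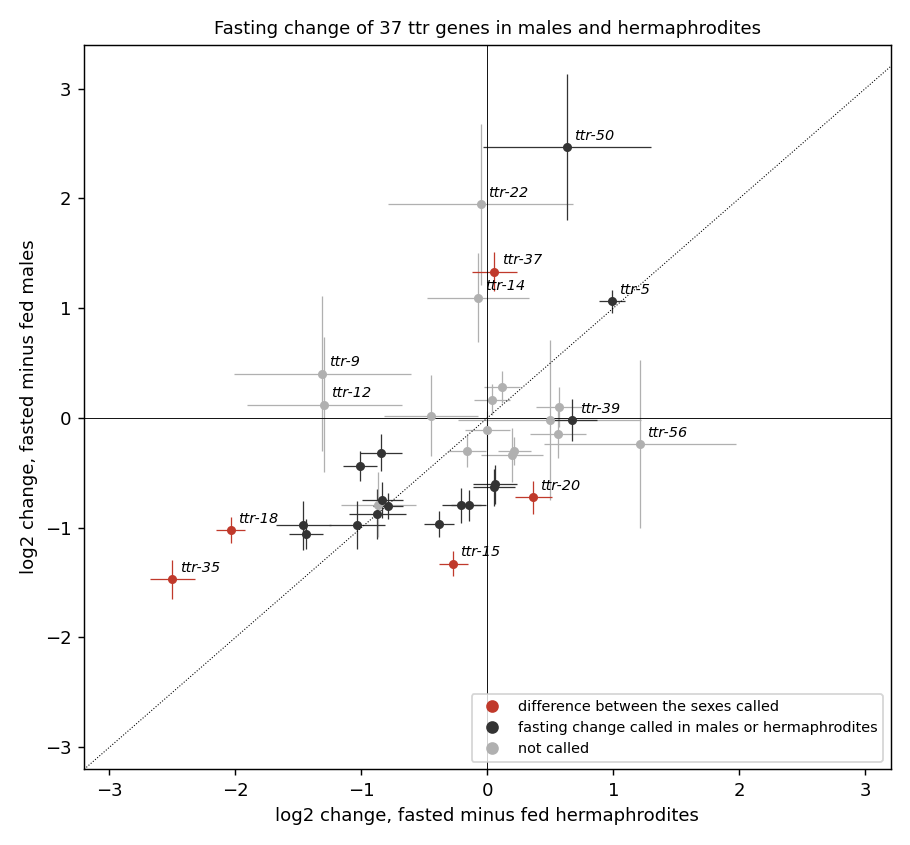
Fasting change of the 37 tested ttr genes in males (vertical axis, log2, fasted minus fed) against that in hermaphrodites (horizontal axis, log2, fasted minus fed). Points are limma estimates with SE, and the dotted line marks equal change. The lower left holds genes that fell in both sexes, from ttr-35 at -1.47 in males and -2.50 in hermaphrodites, ttr-5 lies near the line at 1.06 and 0.99, and the 5 genes in red had a called difference between the sexes.

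The test of the difference itself, the change in males minus that in hermaphrodites, called 5 ttr genes, 3 higher and 2 lower, where 3.82% and 1.46% of all probe sets were called, 5.28% together. The gene ttr-37 rose in males and changed by 0.06 ± 0.18 in hermaphrodites, where it lay at 7.90, 7.55 and 7.73 in fasted and 7.90, 7.37 and 7.76 in fed worms, and its difference was 1.28 ± 0.25 (adjusted p = 0.0155). The fall of ttr-18 was shallower in males by 1.02 ± 0.17 (adjusted p = 0.00705), and that of ttr-35 by 1.03 ± 0.25 (adjusted p = 0.0375). The 2 genes with a negative difference fell in males and did not pass the test in hermaphrodites. The gene ttr-20 lay at 10.14, 10.09 and 9.80 in fasted against 10.81, 10.81 and 10.59 in fed males, and at 9.67, 9.24 and 9.46 in fasted against 9.12, 9.24 and 8.92 in fed hermaphrodites. Its difference was -1.09 ± 0.21 (adjusted p = 0.0138). The signal of ttr-15 was 13.57, 13.79 and 13.78 in fasted and 13.90, 13.97 and 14.09 in fed hermaphrodites (-0.27 ± 0.11, adjusted p = 0.163), and its difference was -1.06 ± 0.16 (adjusted p = 0.0054).

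The difference of ttr-35 kept its direction, at 0.85 after quantile normalization and 0.94 after median centring, but its call ended, with an adjusted p of 0.0581 and 0.065 on these scales, of 0.0659 with no variance trend, and of 0.051 to 0.0824 without any 1 of 9 arrays. With the replicate block, a term for the replicate number, 4 genes were higher and 4 lower, the new ones being ttr-16 (0.53, adjusted p = 0.0248), ttr-25 (-0.59, adjusted p = 0.0476) and ttr-54 (-0.69, adjusted p = 0.0132). The share of all probe sets called for this difference with the block is not given here.

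Markers of several tissues fell beside the ttr genes in fasted worms. Of 8 tested hypodermis markers 4 fell in males and 2 in hermaphrodites, and none rose in either. The summed linear signal of the 10 hypodermis markers was 4306 to 8606 in fasted against 27452 to 44132 in fed males, and 6803 to 7160 in fasted against 12925 to 22666 in fed hermaphrodites. Of 9 body wall muscle markers 7 fell in males and 3 in hermaphrodites, with sums of 18527 to 24139 in fasted against 42934 to 47967 in fed males, and 14430 to 16449 in fasted against 18777 to 21403 in fed hermaphrodites. Of 10 intestine markers 3 fell and 1 rose in males, and 5 fell and 1 rose in hermaphrodites, with sums of 48619 to 68106 in fasted against 69036 to 87729 in fed males, and 11111 to 11767 in fasted against 35204 to 42766 in fed hermaphrodites. No neuron marker of 10 passed in males (2 had an unadjusted p under 0.05) and 1 rose in hermaphrodites, and no pharynx marker of 9 passed in either sex (1 in each had an unadjusted p under 0.05). The sums follow the markers with the highest signal. The median log2 change of the tested markers was -0.93 in males and -0.67 in hermaphrodites for hypodermis. It was -1.01 and -0.11 for body wall muscle, and -0.42 and -0.50 for intestine. Of all probe sets 8.31% fell and 19% rose in males, and 5.69% fell and 5.72% rose in hermaphrodites. None of these markers was at 0 on any array, and the part of these tissues in the ttr falls was not tested.

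**Figure D3:**
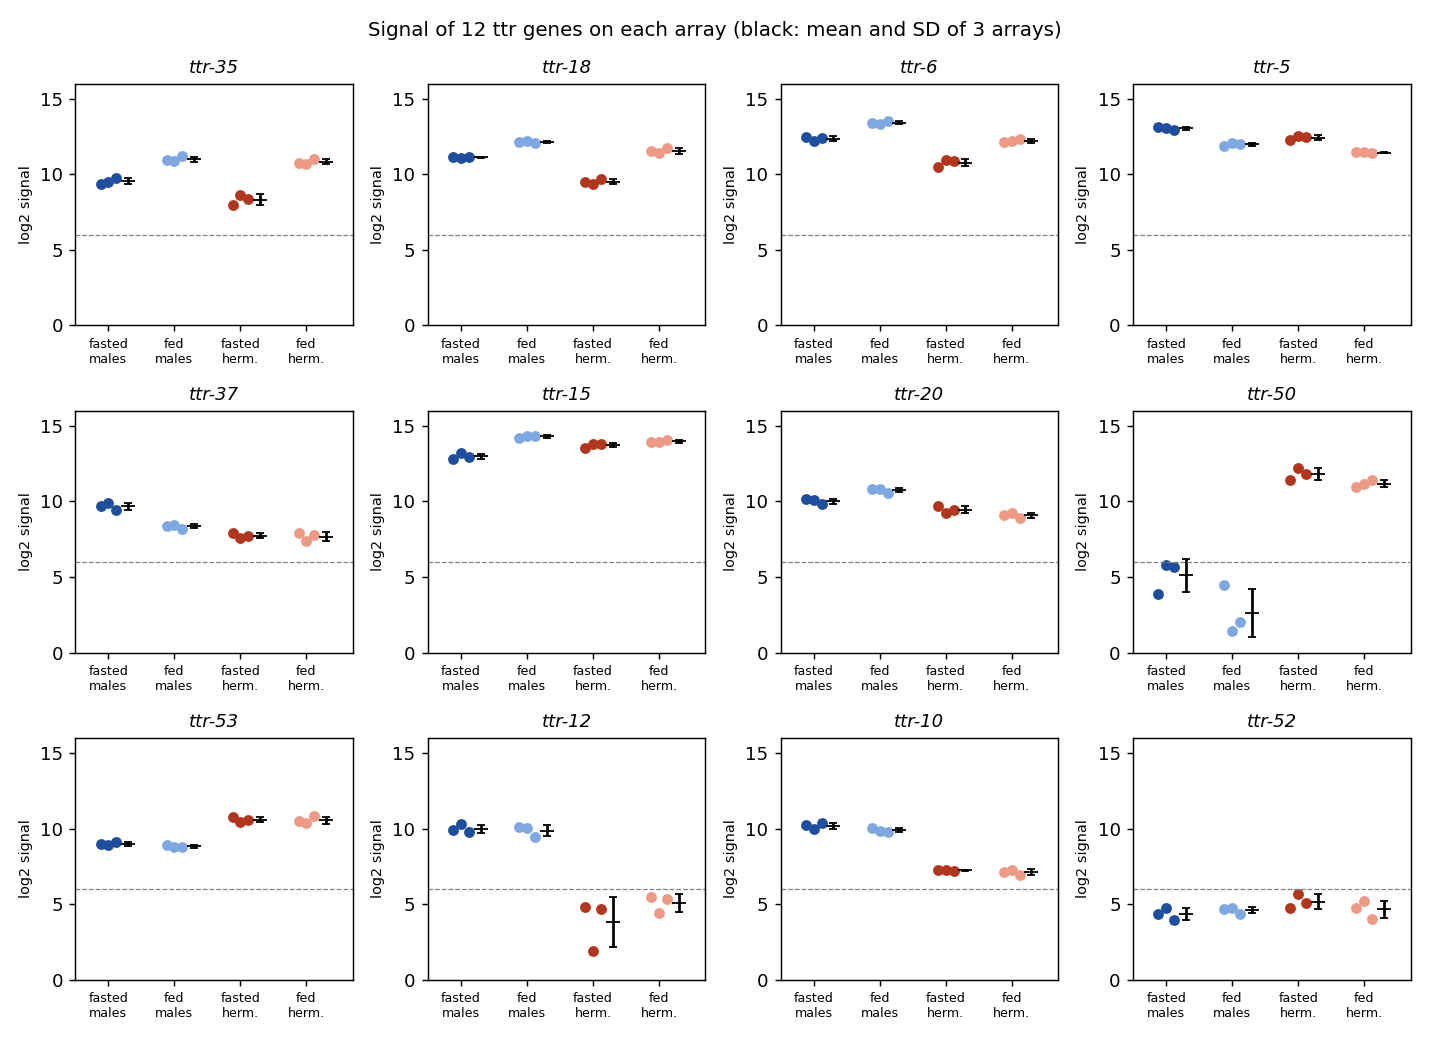
Log2 signal of 12 ttr genes on each array (points, 3 per group, fasted left of fed and males left of hermaphrodites), with the mean and SD of each group in black and the filter level of 6.01 as a dashed line. The first 7 panels show genes with a called fasting change, and ttr-53 and ttr-10 differ by sex. The genes ttr-50 and ttr-12 passed the filter through the arrays of 1 sex alone, so they had to differ between the sexes. The gene ttr-52 lies under the filter level on all arrays.

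Between the sexes, most ttr genes were higher in males. In fed worms 30 of 37 were higher in males, 3 were lower and 4 did not pass, where 38.9% of all probe sets were called higher and 35.9% lower, 74.8% together. These counts include the 7 genes that passed the filter through the arrays of 1 sex, which had to differ between the sexes. Among the 29 genes above the filter level on all arrays, a count added after the data were seen, 24 were higher and 1 was lower, where 30.3% of the 9902 probe sets above it on all arrays were called higher and 45.1% lower. The median of the 29 was 0.76 and that of the 9902 probe sets -0.25. The numbers depended on the scale: of the 37, after quantile normalization 28 were higher and 5 lower, and after median centring 17 were higher and 5 lower. Of the 29, after quantile normalization 22 were higher and 3 lower, and after median centring 11 were higher and 3 lower. Of the 9902 probe sets 28.5% were higher and 44.7% lower after quantile normalization, and 16.6% and 59.1% after median centring. Of all 15913 probe sets 5318 were higher and 6059 lower after quantile normalization, and 4168 and 7452 after median centring. The median difference of all probe sets was 0.13 on the deposited scale, -0.07 after quantile normalization and -0.41 after median centring. Called higher on all 3 scales were 17 of the 37 genes, and the 13 that were not included ttr-5, ttr-15, ttr-18, ttr-26, ttr-32 and ttr-37, with ttr-15 at -0.12 after quantile normalization and -0.22 after median centring. The 17 include ttr-9, ttr-12, ttr-13, ttr-22 and ttr-56, which passed the filter through male arrays alone and had to be higher in males. The count of all probe sets called on all 3 scales is not given here.

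The gene ttr-10, above the filter level on all arrays, lay at 10.06, 9.88 and 9.80 in fed males against 7.16, 7.28 and 6.94 in fed hermaphrodites, a difference of 2.78 ± 0.14 (adjusted p = 4.76e-09) or 6.89-fold. The sexes were set apart on all arrays by at least 2 log2 units. For the 5 genes that passed the filter through male arrays alone, values are given as a description with no test, since genes kept for a high level in males had to differ and their hermaphrodite values lie under the filter level. The signal of ttr-12 was 10.12, 10.04 and 9.46 in fed males and 5.49, 4.42 and 5.37 in fed hermaphrodites. The values of ttr-56 were 8.16, 8.46 and 7.64 in fed males and 1.14, 4.56 and 1.32 in fed hermaphrodites, and those of ttr-9 were 8.37, 8.29 and 8.06 in fed males and 4.83, 3.81 and 2.37 in fed hermaphrodites. These 2 genes and ttr-12 lay above the filter level on all male arrays and on no hermaphrodite array. They therefore could not overlap between the sexes, and this is no finding. For ttr-13 they were 7.09, 6.75 and 7.53 in fed males and 2.41, 3.51 and 2.02 in fed hermaphrodites. The gene ttr-22 was under the filter level in both, with 5.78, 4.11 and 5.14 in fed males and 1.60, 1.99 and 2.79 in fed hermaphrodites. The log2 differences in fed worms were 5.75 for ttr-56, 4.78 for ttr-12, 4.57 for ttr-9, 4.48 for ttr-13 and 2.88 for ttr-22, and with the pseudocount at the 40th percentile they were 2.20, 3.33, 2.20, 1.52 and 0.52 in the same order.

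Hermaphrodites had more signal of ttr-53, which lay at 8.93, 8.78 and 8.77 in fed males against 10.50, 10.34 and 10.81 in fed hermaphrodites (-1.72 ± 0.14, adjusted p = 2.8e-07). It was above the filter level on all arrays, and kept direction and call on all 3 scales and without any 1 array. The genes ttr-50 and ttr-14 passed the filter through hermaphrodite arrays alone, so their sex differences are likewise a description with no test. The signal of ttr-50 was 4.44, 1.46 and 2.01 in fed males and 10.96, 11.17 and 11.42 in fed hermaphrodites, a difference of -8.54, or -5.02 with the pseudocount. That of ttr-14 was 2.84, 3.54 and 2.04 in fed males and 7.07, 6.90 and 6.85 in fed hermaphrodites, a difference of -4.14, or -1.38 with the pseudocount.

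**Figure D4:**
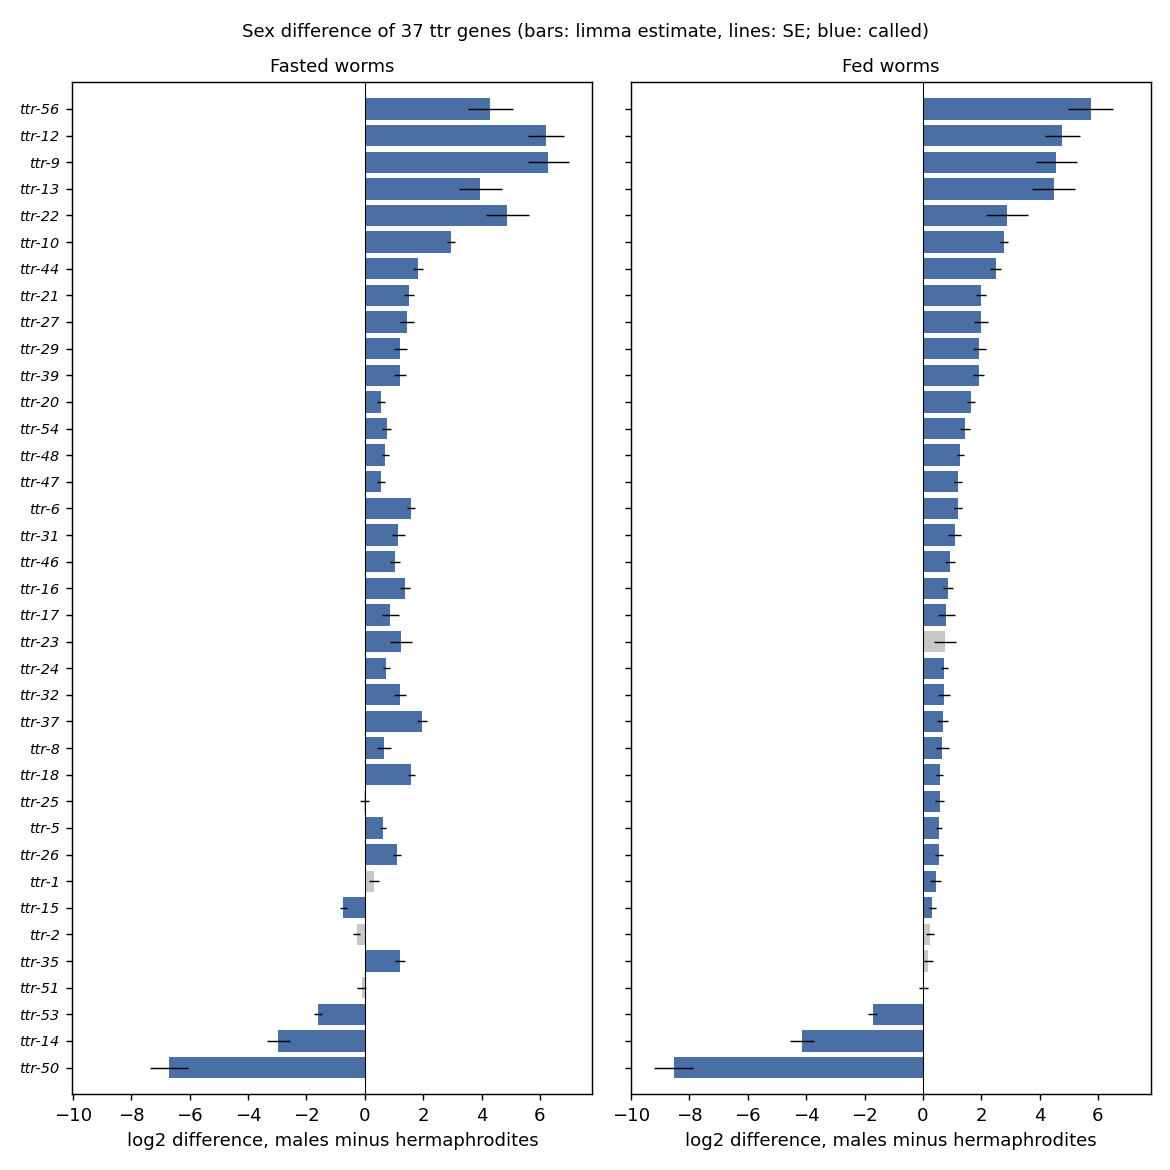
Sex difference (horizontal axis, log2, males minus hermaphrodites) of the 37 tested ttr genes (rows) in fasted worms at the left and fed worms at the right. Bars are limma estimates with SE, and blue bars passed an adjusted p of 0.05, the 7 genes kept by the filter through 1 sex included. In fed worms bars run from -8.54 for ttr-50 to 5.75 for ttr-56, and ttr-35, ttr-37 and ttr-18 have longer bars in fasted than in fed worms.

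In fasted worms 29 of 37 ttr genes were higher in males and 4 were lower, where 38% of all probe sets were called higher and 32.7% lower, 70.7% together. Among the 29 genes above the filter level on all arrays 23 were higher and 2 were lower, where 30.1% of the 9902 probe sets above it on all arrays were called higher and 40.4% lower. Of the 29 higher genes 27 were also higher in males among fed worms (93.1% of the fasted and 90% of the fed list), and those added were ttr-23 and ttr-35. The 27 include ttr-9, ttr-12, ttr-13, ttr-22 and ttr-56, which passed the filter through male arrays alone. The same overlap of all probe sets is not given here, so these shares are not read as a trait of ttr genes. Of the 37 genes, after median centring 18 were higher and 7 lower, and after quantile normalization 27 and 6. Of all 15913 probe sets 3799 were higher and 7785 lower after median centring, and 4999 and 5931 after quantile normalization. Of the 29 genes above the filter level on all arrays, 13 were higher and 5 lower after median centring. After quantile normalization these counts were 22 and 4. Of the 9902 probe sets 14.6% were higher and 61.4% lower after median centring, and 26.5% and 43.1% after quantile normalization. The median of all probe sets was 0.12, -0.12 and -0.50 on the deposited, the quantile and the median-centred scale. The gene ttr-20 (0.56 ± 0.15, adjusted p = 0.00495) turned to -0.0704 and ttr-5 (0.62 ± 0.11, adjusted p = 1.90e-04) to -0.00698 after median centring.

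The values of ttr-10 were 10.24, 9.99 and 10.35 in fasted males and 7.23, 7.29 and 7.22 in fasted hermaphrodites, a difference of 2.95 ± 0.14 (adjusted p = 3.67e-09) or 7.71-fold. Of the 5 genes that passed the filter through male arrays alone, ttr-9 lay at 8.77, 8.34 and 8.82 in fasted males and 2.33, 0.83 and 3.92 in fasted hermaphrodites. The signal of ttr-12 was 9.91, 10.31 and 9.78 in fasted males and 4.84, 1.90 and 4.66 in fasted hermaphrodites. Both genes lay above the filter level on all male arrays and on no hermaphrodite array, so here too they could not overlap. The values of ttr-56 were 7.71, 7.95 and 7.88 in fasted males and 3.44, 4.51 and 2.71 in fasted hermaphrodites, and those of ttr-13 were 7.18, 7.26 and 6.88 in fasted males and 2.78, 5.05 and 1.59 in fasted hermaphrodites. The gene ttr-22 lay over the filter level on the 3 fasted male arrays alone, with 7.45, 6.15 and 7.26 there and 3.26, 1.58 and 1.38 in fasted hermaphrodites. The log2 differences in fasted worms were 6.29 for ttr-9, 6.20 for ttr-12, 4.88 for ttr-22, 4.30 for ttr-56 and 3.96 for ttr-13, and with the pseudocount they were 2.70, 3.71, 1.46, 1.93 and 1.38 in the same order. They are a description with no test, and the difference of ttr-22 between fasted and fed males (1.94) was not read for the same reason.

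On the hermaphrodite side of fasted worms stood ttr-50, ttr-14, ttr-53 and ttr-15. The signal of ttr-50 was 3.85, 5.81 and 5.65 in fasted males and 11.43, 12.20 and 11.81 in fasted hermaphrodites (-6.71). That of ttr-14 was 3.76, 3.84 and 4.10 in fasted males and 6.89, 6.72 and 6.98 in fasted hermaphrodites (-2.96, and -1.19 with the pseudocount), both with no test. That of ttr-53 was 8.95, 8.89 and 9.14 in fasted males and 10.75, 10.45 and 10.57 in fasted hermaphrodites (-1.60 ± 0.14, adjusted p = 6.72e-07). The gene ttr-15 was lower in fasted males by 0.74 ± 0.11 (adjusted p = 9.23e-05, and -1.36 after median centring), while among fed worms it was higher in males by 0.32 ± 0.11 (adjusted p = 0.0236). That small difference of ttr-15 in fed worms ended without the variance trend (0.0521) and without fed hermaphrodite replicate 1 (0.0802) or 2 (0.0596) or fed male replicate 2 (0.0705) or 3 (0.06).

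Marker genes of most somatic tissues and of sperm were also higher in males. In fed worms 9 of 10 neuron markers were higher in males and none lower (median 2.12), and so were 6 of 9 pharynx (median 1.24), 8 of 10 intestine (median 1.04), 9 of 9 body wall muscle (median 1.52) and 9 of 9 sperm markers (median 4.78), while 3 of 8 hypodermis markers were higher and 1 lower and 10 of 10 oocyte markers were lower (median -5.52). After median centring 5 of 9 pharynx, 5 of 10 intestine and 8 of 9 body wall muscle markers were higher in fed males, and of 10 neuron markers 9 were higher and 1 lower. In fasted worms 9 of 10 neuron and 8 of 10 intestine markers were higher in males and none lower. So were 5 of 9 pharynx and 5 of 9 body wall muscle markers, while 1 hypodermis marker was higher and 1 lower. After median centring 4 body wall muscle markers were higher and 3 lower in fasted males (median 0.06), and 2 hypodermis markers were lower. Of all probe sets 38.9% were higher and 35.9% lower in fed males, and 38% and 32.7% in fasted males. The summed linear signal of the 10 neuron markers was 21854 to 22994 in fasted and 19887 to 21500 in fed males, against 8841 to 9071 in fasted and 7824 to 8517 in fed hermaphrodites. That of the 10 pharynx markers was 3913 to 4965 in fasted and 3774 to 4360 in fed males, against 1437 to 1538 in fasted and 1199 to 1694 in fed hermaphrodites. The sperm markers summed to 14614 to 17800 in fasted and 13346 to 14234 in fed males, against 582 to 711 in fasted and 608 to 892 in fed hermaphrodites. The oocyte markers summed to 4422 to 7203 in fasted and 8251 to 11498 in fed males, against 106038 to 117128 in fasted and 108985 to 131143 in fed hermaphrodites. Whether the ttr genes differ between the sexes within any of these tissues was not tested.

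Many ttr genes lie next to another ttr gene. The WBcel235 gene table, used for names and order only, places 16 of the 40 genes on chromosome V, 9 on IV, 7 on III, 6 on X and 1 each on I and II. It has 12 runs of directly adjacent protein-coding ttr genes, of which 6 hold more than 1 gene measured here. The adjacent genes ttr-24, ttr-25 and ttr-26 on chromosome V had fasting changes in males of -0.80, -0.80 and -0.44, all called, and in hermaphrodites of -0.79, -0.21 and -1.01, where ttr-25 did not pass (adjusted p = 0.453). Both ttr-32 and its neighbour ttr-8 on chromosome III fell in both sexes, with ttr-8 at -0.87 in males and -0.87 in hermaphrodites. On chromosome IV, ttr-16 lay at 14.39, 14.74 and 14.69 in fasted males, 14.64, 14.91 and 15.23 in fed males, 12.99, 13.32 and 13.38 in fasted hermaphrodites and 13.90, 14.04 and 14.28 in fed hermaphrodites. It fell in hermaphrodites (-0.85 ± 0.17, adjusted p = 0.00551), while its neighbour ttr-17 had -0.87 ± 0.30 there (adjusted p = 0.0863) and passed with the replicate block (adjusted p = 0.028). Also on IV, the neighbours ttr-53 and ttr-54 lay on opposite sides by sex in fed worms, with ttr-54 at 12.32, 12.53 and 12.70 in fed males against 10.97, 11.08 and 11.21 in fed hermaphrodites (1.43 ± 0.17, adjusted p = 6.45e-06). On V, ttr-27 and ttr-29 were higher in fed males by 1.99 ± 0.25 and 1.93 ± 0.22, and ttr-28 between them was not tested.

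The genes ttr-2 and ttr-51 passed in none of the 5 comparisons. The signal of ttr-2 was 13.63, 13.55 and 13.77 in fasted males, 13.79, 13.96 and 14.11 in fed males, 13.69, 14.17 and 13.94 in fasted hermaphrodites and 13.62, 13.82 and 13.71 in fed hermaphrodites. That of ttr-51 was 13.70, 13.64 and 14.04 in fasted males, 13.88, 14.08 and 14.32 in fed males, 13.68, 13.97 and 14.04 in fasted hermaphrodites and 13.91, 14.07 and 14.20 in fed hermaphrodites. For ttr-51 every pair of groups compared overlapped, and for ttr-2 every pair except fasted and fed males, where the fasted arrays lay just under the fed ones. On the median-centred scale ttr-2 and ttr-51 were lower in fasted males than in fasted hermaphrodites by 0.91 and 0.73 (adjusted p = 1.89e-05 and 0.00102), and with the replicate block both fell in fasted males (adjusted p = 0.0481 for ttr-2 and 0.019 for ttr-51).

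Genes that work with TTR-52 and TTR-11 in engulfment and repair were also followed. The 12 listed genes encode the engulfment receptor CED-1, its adaptor CED-6 and transporter CED-7, the CED-2, CED-5 and CED-12 proteins that act on the Rac GTPase CED-10, the phosphatidylserine receptor PSR-1, the flippase TAT-1, the secreted lipid-binding protein NRF-5 and the integrin subunits INA-1 and PAT-3. In fasted hermaphrodites none of the 12 passed the limma test, and 1 had an unadjusted p under 0.05. Few probe sets passed there in the whole table, 5.72% higher and 5.69% lower. In fasted males 4 rose, namely ced-5 (0.56 ± 0.14), ced-6 (0.56 ± 0.15), ced-2 (0.52 ± 0.14) and psr-1 (0.47 ± 0.13), and 2 fell, nrf-5 (-0.70 ± 0.16) and pat-3 (-0.54 ± 0.18), but after quantile normalization or median centring none rose and 2 fell. Of all 15913 probe sets 19% rose and 8.31% fell in fasted males. After quantile normalization 2152 of them rose and 1650 fell, and after median centring 1298 rose and 1636 fell. In fed worms 7 of the 12 were lower in males, from ced-2 (-2.08 ± 0.14) and psr-1 (-1.52 ± 0.13) to ced-10 (-0.52 ± 0.22), and 1 was higher, nrf-5 (0.45 ± 0.16), where 35.9% of all probe sets were lower and 38.9% higher. In fasted worms 7 were lower in males and none was higher, where 32.7% of all probe sets were lower and 38% higher. After median centring 9 were lower in fed and 10 in fasted males and none was higher, and after quantile normalization 6 were lower and 1 higher in fed and 7 lower and 1 higher in fasted males. Of all 15913 probe sets 7452 were lower and 4168 higher in fed males after median centring, and 7785 and 3799 in fasted males. After quantile normalization 6059 were lower and 5318 higher in fed males, and 5931 and 4999 in fasted males. The median of the 12 in fed worms was -0.68, -1.22 and -0.47 on the deposited, the median-centred and the quantile scale, where that of all probe sets was 0.13, -0.41 and -0.07.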

How the data were processed

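Per the submitters' processing notes the authors used MAS5, with no version given. The deposited values are log2 signals, and per the labels' protocols RNA was labelled by in vitro transcription. The trimmed mean of the linear signal (2% from each end) was 500.1 to 500.2 on all arrays, and 1171 of the values were exactly 0. The table has 22625 probe sets, and its 77 controls were dropped. Probe sets above log2 6.01 on at least 3 arrays were tested. Genes came from the platform's annotation, which gave 1 gene for 20766 probe sets, several for 887 and none for 895. All 40 ttr symbols matched WBcel235 through the gene ID.

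In R 4.3.3, limma 3.58.1 fitted the means of the 4 groups over 12 arrays (lmFit, then eBayes with a variance trend), checked on data with known changes. Python 3.11.15, pandas 2.3.3 and matplotlib 3.10.9 made tables and figures. Alternatives were a pseudocount of 64.6, no or a stricter filter (log2 7.73), quantile normalization, median centring, a replicate block, no trend, only the arrays compared, the other ttr-24 probe set, and leaving out each array. Named are, per comparison and direction, the 6 largest called changes without overlap between groups (no such condition for the difference between the sexes), ttr-52, and the engulfment list, whose called genes are counted. Other ttr genes named, such as ttr-2, ttr-16, ttr-51 and ttr-54, were chosen after their values were seen. The members and lists were chosen with earlier results of these data known.

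Deviations from the group means of arrays with the same replicate number correlated at 0.157, 0.119 and 0.274 between fasted and fed males, 0.189, 0.129 and 0.259 between fasted and fed hermaphrodites, and 0.0525 to 0.204 between the sexes. All of these were positive, so arrays with the same number shared part of their deviations, between the sexes as well. The main fit did not pair them, and the replicate block did. With the block 20 ttr genes fell with fasting in males and 11 in hermaphrodites, against 16 and 10 in the main fit. The counts over all probe sets grew as well, to 1513 and 1096 with the block, against 1323 and 906 in the main fit.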

Additional observations from a re-analysis of the deposited data

Results flagged for a closer look

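The fasting change differed between males and hermaphrodites by the test of the difference itself (limma, adjusted over 15913 probe sets) in 5 ttr genes. The difference, males minus hermaphrodites, was 1.28 for ttr-37, 1.02 for ttr-18 and 1.03 for ttr-35, and -1.09 for ttr-20 and -1.06 for ttr-15. Of these ttr-37 rose in all fasted males over all fed males and overlapped in hermaphrodites, and ttr-15 and ttr-20 were lower in all fasted males than in all fed males. The adjusted p of ttr-35 was 0.0375 and crossed 0.05 under several alternatives, where its difference kept its direction. Groups of 3 arrays are too small for a search for single outlying arrays.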

How the results depend on the processing

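Leaving out the 7 genes that passed the filter through 1 sex, 36 of 48 calls of the named genes kept direction and call under every alternative that tested the gene. The precision is limited by 3 arrays a group and by values under the filter level. Genes called higher with fasting in hermaphrodites numbered 2, and 1 with the pseudocount, without the filter, with only the arrays compared, after quantile normalization and after median centring (1 to 3 without single arrays). Genes called higher with fasting in males numbered 3, and 5 without the variance trend, ttr-14 and ttr-22, which passed the filter through 1 sex, being added (2 to 3 without single arrays). Genes higher in males numbered 30 in fed and 29 in fasted worms, and 17 and 18 after median centring (26 to 31 and 27 to 29 without single arrays). Genes lower in males numbered 3 in fed worms, 5 after median centring, 5 after quantile normalization and 1 among the 29 genes above the filter level on all arrays (3 without any single array), and 4 in fasted worms, 7 after median centring and 2 among the 29 (4 to 5 without single arrays). Genes with a negative difference of the fasting changes numbered 2, and 4 with the replicate block (2 to 3 without single arrays). The other counts were within 1.5 times under every alternative, with falls from fasting of 9 to 12 in hermaphrodites and 13 to 16 in males without single arrays. Falls in males numbered 13 after quantile normalization and 19 after median centring. Of all probe sets 1650 and 1636 fell in males on these scales, against 1323 on the deposited one. Called on all 3 scales were 13 of the 16 falls in males, without ttr-26, ttr-44 and ttr-54, and all 10 in hermaphrodites. Of all called ttr genes, those that turned on another scale were ttr-15 in fed worms, from 0.32 in males over hermaphrodites on the deposited scale to -0.12 after quantile normalization and -0.22 after median centring, ttr-1 (-0.10) and ttr-26 (-2.35e-05) in fed worms, and ttr-5 (-0.00698), ttr-20 (-0.0704) and ttr-47 (-0.0705) in fasted worms, each after median centring. Between the sexes, median centring moved all differences down by about the shift of the median of all probe sets. The replicate block ended no call of the named genes.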

Other observations

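Each of 3 further probe sets names more than one ttr gene in the annotation and was left out of the counts. The probe set of ttr-30 and ttr-59, which are neighbours on X, lay at 9.50, 9.77 and 9.70 in fasted males, 10.52, 10.83 and 10.85 in fed males, 8.28, 8.82 and 9.0 in fasted hermaphrodites and 9.84, 9.84 and 10.25 in fed hermaphrodites. It fell with fasting by 1.07 ± 0.19 in males (adjusted p = 0.00136) and by 1.28 ± 0.19 in hermaphrodites (adjusted p = 6.93e-04, limma), and the arrays did not overlap in either sex. The probe set of ttr-3 and ttr-4, the second a pseudogene in WBcel235, was higher in males by 2.64 ± 0.17 in fasted worms (adjusted p = 3.44e-08) and by 2.19 ± 0.17 in fed worms (adjusted p = 1.45e-07), and its fasting changes did not pass. The probe set of ttr-40 and ttr-49, also neighbours, was higher in males by 1.10 ± 0.24 in fasted (adjusted p = 0.00109) and 0.96 ± 0.24 in fed worms (adjusted p = 0.00271). Signals of the genes that share a probe set cannot be told apart.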
